A study of Homo sapiens with 8 samples.

Results

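The FBXO and FBXW genes, which encode substrate receptors of SCF ubiquitin ligases, were examined in A673 Ewing Sarcoma cells after JIB-04 treatment. Every entry of the expression table whose gene name was FBXO or FBXW followed by a number was taken, which gave 46 genes (37 FBXO and 9 FBXW) of 65962 genes in all. None of the 46 names belonged to more than 1 identifier. Of these, 38 genes (31 FBXO and 7 FBXW) averaged 1 FPKM or more in the 8 libraries and were tested, and 29 reached a mean of 10 FPKM. FPKM is a read level scaled by the length of the transcript and by the reads mapped in the library.

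The tested cells received 2 μM JIB-04, a small molecule inhibitor of Jumonji-domain histone demethylases, for 36 hours (4 samples), and the control cells received vehicle (DMSO) for 36 hours (4 samples). All samples were of the same established line, whose oncogenic driver is the EWS/Fli1 fusion, grown in the same medium with no other agent, so the values hold for 1 line, 1 dose and 1 time point. The question put to the RNA-seq data was what JIB-04 does to the transcriptome of these cells. The study's methods state that the treatment of each group was done in quadruplicate. The sources used here do not say that the 4 samples of a group came from separate cultures. A p-value here therefore covers only the spread among these libraries, which may be technical.

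An SCF ligase is built on the cullin CUL1, with the RING protein RBX1 at one end and the adaptor SKP1 at the other. SKP1 holds the F-box of a receptor, and the remainder of the receptor binds the protein to be ubiquitinated. FBXW proteins bind through WD40 repeats, often to phosphorylated substrates, and FBXO proteins carry other domains or none that is recognized. Receptors of both kinds are known for their control of cell cycle regulators, of stress responses and of muscle protein breakdown.

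The deposited FPKM summed to between 1175410 and 1237190 in JIB-04 libraries and to between 1346290 and 1370440 in vehicle libraries. Messenger RNAs of the mitochondrial genome took 3.60% to 4.33% of this sum with JIB-04 and 9.60% to 10.2% with vehicle. Read numbers per library were not found in the sources, but steps between the lowest FPKM values put the depth of the JIB-04 libraries at 0.766 to 0.959, and that of the other vehicle libraries at 0.822 to 0.954, of vehicle replicate 1. All 10 of a list of Ewing Sarcoma genes were measured, among them CD99, a surface protein used in diagnosis (599 ± 24.4 FPKM with JIB-04 and 1160 ± 30.5 FPKM with vehicle), and the EWS/Fli1 target NKX2-2 (88.9 ± 12.03 and 151 ± 8.33 FPKM; mean ± SD, n = 4 per group throughout). Of these 10 Ewing Sarcoma genes, 7 fell and 2 rose, FLI1 (log2 fold change 0.24) and LIPI (0.36). NR0B1 was not called (0.15). Over all genes tested, 38% fell and 34.2% rose. Markers of other cell types were mixed. Of 7 markers of blood and endothelial cells, which summed to between 24.5 and 27.7 FPKM with JIB-04 and between 1.29 and 1.998 FPKM with vehicle, the 2 tested rose: CD68, a lysosomal glycoprotein, at 22.2 ± 1.33 FPKM with JIB-04 and 0.573 ± 0.439 FPKM with vehicle, and the integrin ITGAM, at 2.39 ± 0.763 and 0.295 ± 0.111 FPKM. The defining leukocyte marker PTPRC reached at most 0.0551 FPKM with JIB-04 and 0.0298 FPKM with vehicle. Of 5 epithelial markers (304 to 322 FPKM in all with JIB-04 and 317 to 338 FPKM with vehicle), the keratin KRT8 rose (log2 fold change 1.604), KRT18 fell (-0.31) and EPCAM, KRT19 and CDH1 were under 1 FPKM. Of 4 neuronal markers (63.1 to 70.1 and 69.6 to 71.6 FPKM in all), SNAP25 rose (1.76), SYP fell (-0.46), SYN1 was not called and RBFOX3 was under 1 FPKM. The part of other cells in the results was not tested. In bulk RNA, fewer cells that express a gene and less RNA of that gene per cell cannot be told apart.

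JIB-04 moved most FBXO and FBXW genes, and in opposite directions. Of the 38 genes tested, 16 rose, 15 fell and 7 did not pass the test (limma on log2(FPKM + 0.5), Benjamini-Hochberg adjusted p under 0.05 over 17460 genes). Of all genes tested, 34.2% rose and 38% fell, 72.2% in all, beside 81.6% of the FBXO and FBXW genes. A change of at least 2-fold was seen in 9 members. FBXO32, FBXO28, FBXO33, FBXO8, FBXO30 and FBXW7 were higher and FBXO43, FBXO17 and FBXO4 were lower, beside 13.1% and 11.8% of all genes at least 2-fold higher and lower. On the log2 scale the median change was -0.08 over the members and -0.07 over all genes tested, and the median size of the change was 0.57 and 0.58. With FPKM rescaled to TPM, which makes each library sum to the same total and moved the median of all genes up by 0.15, 17 members rose and 14 fell, beside 40.4% and 31.1% of all genes (71.5% in all). Small falls shrank by more than 1.5 times with TPM but were still called for FBXW11 (-0.22), FBXO6 (-0.28), FBXO44 (-0.16), FBXW2 (-0.13) and FBXO7 (-0.10), while the rise of FBXO3 was larger (0.35).

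The JIB-04 and vehicle libraries did not overlap for 31 of the 38 members, 30 of them called, beside 67.3% of all genes. For each of these 31 the exact two-sided permutation test over the libraries gave p = 0.0286, the smallest that 4 against 4 samples allow. FBXO25 was called although its groups overlapped, and FBXO42 did not overlap but was not called (limma adjusted p = 0.0833). The plot of levels in every library shows how far apart the groups were for each gene.

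**Figure D1:**
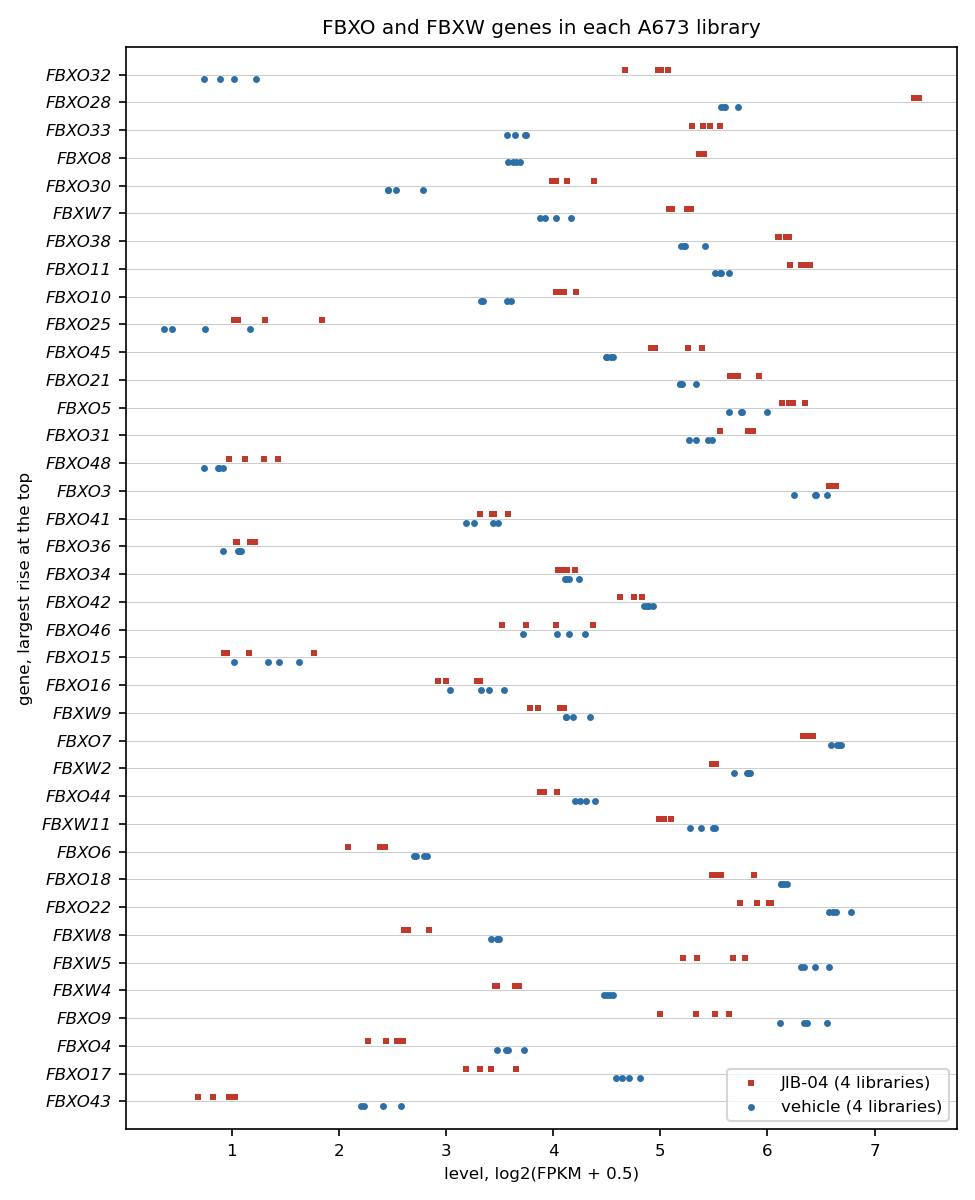
Level of each of the 38 tested genes in the 8 libraries, as log2(FPKM + 0.5), with JIB-04 libraries as red squares and vehicle libraries as blue circles, ordered by log2 fold change. FBXO32 stands farthest apart at the top, FBXO28 reaches the highest levels with JIB-04, and the genes in the middle of the plot overlap.

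Among the genes named FBXW, FBXW7 rose and the other 6 tested fell, beside 34.2% of all genes higher and 38% lower. FBXW7 recognizes phosphorylated cyclin E, MYC, JUN and MCL1 and is a tumor suppressor in several cancers. Its levels were 34.0, 38.6, 33.4 and 37.5 FPKM in JIB-04 replicates 1 to 4, against 14.6, 17.5, 15.8 and 14.2 FPKM in vehicle replicates 1 to 4. Every JIB-04 library lay well above every vehicle library, and the ratio of the group means was 2.31. The log2 fold change on the log2(FPKM + 0.5) scale was 1.18 (95% interval 1.00 to 1.37, limma adjusted p = 1.10e-06). FBXW4 (dactylin) was at 11.4 ± 0.931 FPKM with JIB-04 and 22.4 ± 0.548 FPKM with vehicle (log2 fold change -0.95). FBXW5, which has been assigned to CUL4 ligases as well as to SCF, was at 45.5 ± 8.60 and 85.1 ± 7.11 FPKM (log2 fold change -0.91). FBXW8, which pairs with CUL7, was at 5.92 ± 0.495 and 10.6 ± 0.249 FPKM (log2 fold change -0.79). The falls of FBXW4 (-0.50) and FBXW5 (-0.34) were smaller but still called with the GC trend of each library removed, a correction chosen after seeing the data.

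The falls of the 3 remaining FBXW genes were smaller. FBXW11, the beta-TrCP2 receptor that recognizes phosphorylated beta-catenin and IκB, changed by -0.38 on the log2 scale (standard error 0.06), and FBXW2 by -0.29 (standard error 0.05). For FBXW9 the value was -0.24 (standard error 0.09), and it passed narrowly (limma adjusted p = 0.0397). The same correction, which takes from each library the trend of its values with transcript GC content, turned FBXW9 to 0.25 (adjusted p = 0.000741 by limma), and 2 FBXW genes were then higher and 5 lower. The FBXW9 call was also lost without JIB-04 replicate 3 or 4 or vehicle replicate 1, 2 or 3 (adjusted p = 0.0512 to 0.0998 by limma). It was lost as well with no filter, median-ratio scaling and an analysis of variance of FPKM. With TPM the FBXW9 change was -0.08 and not called, leaving 1 gene higher and 5 lower. Over the 7 FBXW genes the median log2 fold change was -0.38 and that of the 31 FBXO genes, of which 15 rose and 9 fell, was 0.10. The difference between the families was not tested.

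**Figure D2:**
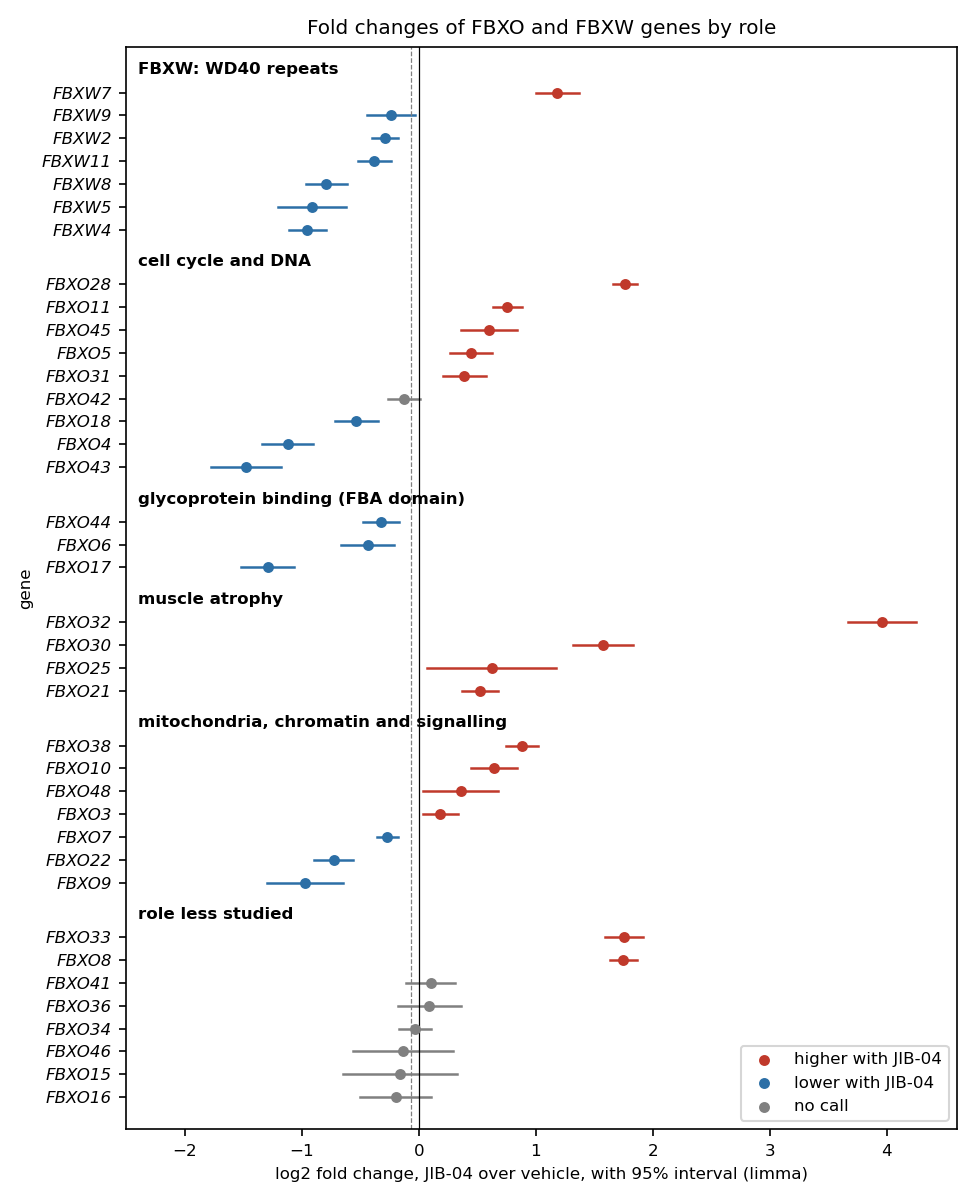
Log2 fold change of each tested gene, JIB-04 over vehicle, with its 95% interval from limma, grouped by role. Red points are genes called higher with JIB-04, blue points genes called lower and gray points genes not called, and the dashed line is the median of all 17460 genes, -0.07. FBXW7 is the single red point among 7 FBXW genes, all 4 tested genes of the muscle atrophy group are red, and all 3 tested FBA genes are blue.

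Of 9 receptors with known parts in the cell cycle or at DNA, 5 rose, 3 fell and FBXO42, a receptor for p53, was not called. Over all genes tested, 34.2% rose and 38% fell. FBXO28, a substrate receptor located in the nucleus that acts on MYC, was the most abundant member by its mean over the 8 libraries. It was at 164.7, 165.6, 170.4 and 165.0 FPKM in JIB-04 replicates 1 to 4, against 47.0, 48.1, 47.8 and 52.5 FPKM in vehicle replicates 1 to 4. The 4 JIB-04 libraries lay close together and far above the vehicle libraries (3.41-fold, log2 fold change 1.76, 95% interval 1.66 to 1.86, limma adjusted p = 3.82e-09). A rise of this size or more was found in 5.29% of all genes. FBXO28 provided 12.1% to 13.2% of the summed FPKM of the 46 genes with JIB-04 and 3.999% to 4.40% with vehicle.

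FBXO11, a receptor of BCL6 and of the ligase component CDT2, was at 79.8 ± 4.68 FPKM with JIB-04 and 47.0 ± 1.90 FPKM with vehicle (log2 fold change 0.76). FBXO45, which works with the RING ligase MYCBP2, had a log2 fold change of 0.60. FBXO31, which directs cyclin D1 to breakdown after DNA damage, had 0.39 (standard error 0.08). FBXO18, listed as FBH1 in GENCODE and a DNA helicase that carries an F-box, fell to 48.7 ± 6.28 FPKM with JIB-04, against 70.4 ± 1.28 FPKM with vehicle (log2 fold change -0.53).

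The 2 inhibitors of the anaphase-promoting complex in this family moved in opposite directions. FBXO5, or EMI1, which holds the complex inactive from S phase to mitosis, was at 74.7 ± 4.69 FPKM with JIB-04 and 54.9 ± 5.87 FPKM with vehicle (log2 fold change 0.44, limma adjusted p = 0.000739), but with the GC trend removed its log2 fold change was 0.04 and it was not called. FBXO43, or EMI2, which does the same in the meiotic divisions of the egg, was at 1.28, 1.11, 1.54 and 1.46 FPKM in JIB-04 replicates 1 to 4, against 4.19, 4.12, 4.80 and 5.49 FPKM in vehicle replicates 1 to 4. Its groups did not overlap, and the change was the largest fall among the members by log2 fold change (-1.48, 95% interval -1.78 to -1.18, limma adjusted p = 6.88e-06). Of all genes, 4.58% fell as far or further. On the log2(FPKM + 0.5) scale the change of genes at such low levels is understated: the ratio of the group means, vehicle over JIB-04, was 3.45 for FBXO43.

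FBXO4, which with the chaperone CRYAB binds phosphorylated cyclin D1, was at 4.34, 5.34, 5.57 and 4.94 FPKM in JIB-04 replicates 1 to 4, against 12.8, 11.3, 10.6 and 11.5 FPKM in vehicle replicates 1 to 4. The highest JIB-04 library was well below the lowest vehicle library (log2 fold change -1.12, 95% interval -1.34 to -0.90, limma adjusted p = 5.01e-06). With TPM the fall of FBXO4 was just under 2-fold (log2 fold change -0.95). CRYAB itself was at 70.7 ± 10.2 FPKM with JIB-04 and 3.996 ± 0.998 FPKM with vehicle, a log2 fold change of 4.001.

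**Figure D3:**
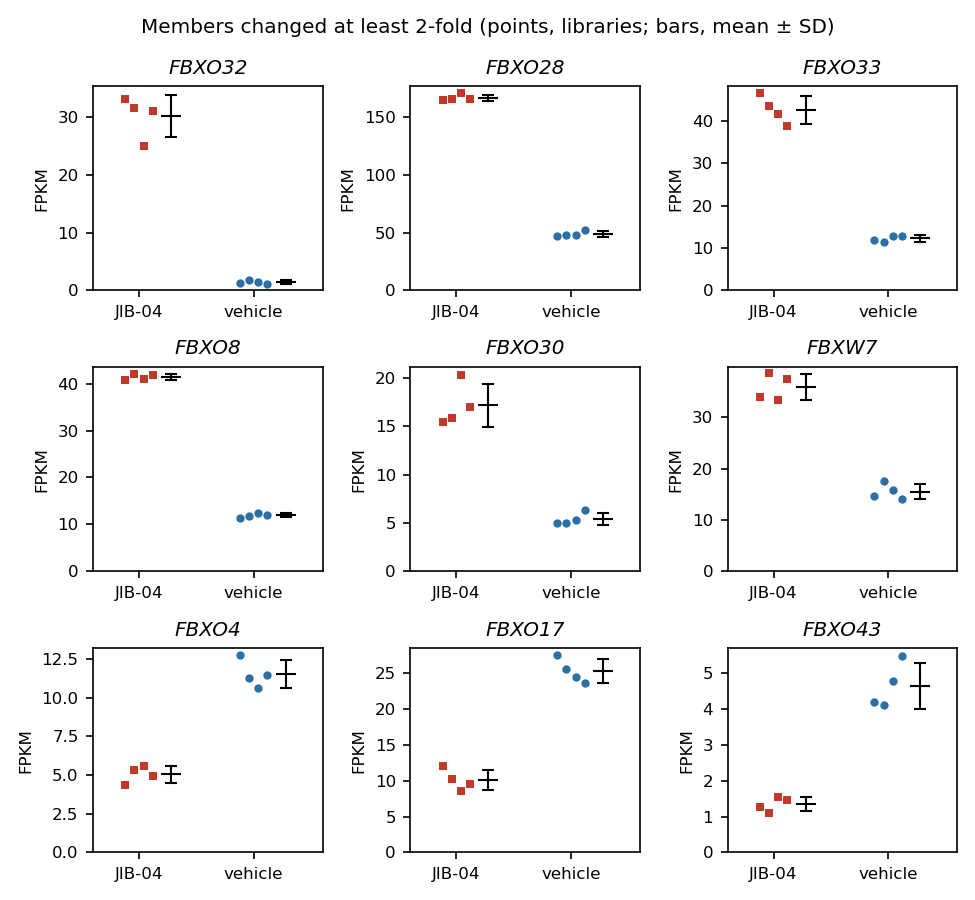
FPKM of the 9 genes that changed at least 2-fold, with each library as a point (JIB-04 red squares, vehicle blue circles) and the mean ± SD of each group (n = 4) as a cross with bars. Each panel has its own linear axis from 0, and in no panel do the groups overlap.

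The 5 receptors with an FBA domain, which in some of them, but not in all, binds N-linked glycans of misfolded glycoproteins, lie in 2 short stretches of the genome. FBXO2 (chr1:11637018-11655785, minus strand), FBXO44 (chr1:11654375-11663327, plus strand) and FBXO6 (chr1:11664124-11674354, plus strand) are neighbors, as are FBXO17 (chr19:38941401-38975910, minus strand) and FBXO27 (chr19:38990714-39032785, minus strand), with gene coordinates from GENCODE release 29 on GRCh38. All 3 that were tested fell, beside 38% of all genes. FBXO17 was at 12.05, 10.2, 8.62 and 9.49 FPKM in JIB-04 replicates 1 to 4, against 27.5, 25.6, 24.5 and 23.6 FPKM in vehicle replicates 1 to 4. The highest JIB-04 library was far below the lowest vehicle library (log2 fold change -1.29, 95% interval -1.52 to -1.06, limma adjusted p = 2.70e-06).

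FBXO6 was at 4.53 ± 0.534 FPKM with JIB-04 and 6.27 ± 0.272 FPKM with vehicle (log2 fold change -0.43), and FBXO44, also reported to act on BRCA1, at 15.2 ± 0.881 and 19.1 ± 1.09 FPKM (log2 fold change -0.32). Transcripts of these 3 genes are GC-rich, between 57.7% and 59.4%. With the GC trend removed FBXO17 remained lower (log2 fold change -0.95), while FBXO6 (-0.13) and FBXO44 (-0.02) were no longer called. The 2 other FBA genes were near the limit of detection: FBXO2 was between 0.301 and 0.511 FPKM with JIB-04 and between 0.113 and 0.902 FPKM with vehicle, and FBXO27 reached at most 0.0767 FPKM with JIB-04 and 0.324 FPKM with vehicle.

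The muscle atrophy group holds 5 receptors, FBXO25 among them only by its relation to FBXO32. The 4 tested were called higher, 1 of them weakly (FBXO25), with a median log2 fold change of 1.10, beside 34.2% of all genes called higher. FBXO32, or atrogin-1, is the receptor that FOXO transcription factors induce in wasting muscle. It was at 33.1, 31.6, 24.9 and 31.0 FPKM in JIB-04 replicates 1 to 4, against 1.35, 1.84, 1.52 and 1.18 FPKM in vehicle replicates 1 to 4. JIB-04 replicate 3 was the lowest of its group but still far above all vehicle libraries. The ratio of the group means was 20.5. The log2 fold change on the log2(FPKM + 0.5) scale was 3.96 (95% interval 3.67 to 4.25, limma adjusted p = 1.27e-08). It was the largest of all members tested, and 0.372% of all genes had a log2 fold change as high. Over all fits the log2 fold change of FBXO32 lay between 3.65 and 4.36.

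FBXO30, or MUSA1, a receptor of denervated muscle, was at 15.4, 15.8, 20.3 and 17.003 FPKM in JIB-04 replicates 1 to 4, against 4.98, 5.004, 5.30 and 6.38 FPKM in vehicle replicates 1 to 4. The groups did not overlap, and JIB-04 replicate 3 was the highest of its group (log2 fold change 1.57, 95% interval 1.32 to 1.83, limma adjusted p = 1.35e-06). FBXO30 has the lowest transcript GC content of the 38 genes, 34.8%, and with the GC trend removed its log2 fold change was 0.98.

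FBXO21, known in mouse muscle as SMART, was at 53.5 ± 4.62 FPKM with JIB-04 and 37.0 ± 1.96 FPKM with vehicle (log2 fold change 0.52). FBXO25, the closest relative of FBXO32, was at 1.58, 1.52, 1.98 and 3.08 FPKM in JIB-04 replicates 1 to 4, against 0.790, 0.857, 1.18 and 1.76 FPKM in vehicle replicates 1 to 4. Its groups overlapped through vehicle replicate 4, and its call (log2 fold change 0.62, limma adjusted p = 0.0432) was lost when any 1 of JIB-04 replicates 3 and 4 or vehicle replicates 1, 2 and 3 was left out (log2 fold change 0.45 to 0.65), and also with no filter, quantile scaling, an analysis of variance of FPKM or the GC trend removed. FBXO40, the muscle receptor for IRS1, did not exceed 0.0144 FPKM in any library.

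The defining regulators of muscle cells were at or near 0 beside these values. MYOG and MYF5 were listed at 0 in all libraries, MYOD1 reached at most 0.0296 FPKM with JIB-04 and was listed at 0 with vehicle, and DES reached at most 0.404 FPKM with JIB-04 and 0.186 FPKM with vehicle. The actin ACTA1 was at 1.71 ± 0.973 FPKM with JIB-04 and 2.48 ± 1.37 FPKM with vehicle, was not called, and made up most of the list, whose 6 markers summed to between 1.501 and 3.64 FPKM with JIB-04 and between 1.08 and 3.97 FPKM with vehicle. TRIM63, the other well-known ligase of muscle atrophy, reached at most 0.0347 FPKM with JIB-04 and was listed at 0 with vehicle. Of 12 tested genes from a list of FOXO factors, their targets and atrophy genes, 8 rose and 3 fell, with a median log2 fold change of 0.83. Of all genes, 34.2% rose and 38% fell. MAP1LC3B, an autophagosome protein, was at 346 ± 17.6 FPKM with JIB-04 and 55.1 ± 2.08 FPKM with vehicle (log2 fold change 2.64). The mitophagy receptor BNIP3 (log2 fold change 2.24) and FOXO4 (2.35) rose, and FOXO6 (-1.86) fell. This list was chosen with earlier results of these data known and holds genes that the study picked from these libraries, so its direction is not independent evidence.

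Of 7 receptors with parts in mitochondria, chromatin and signaling, 4 rose and 3 fell, none of them 2-fold in the main fit. The shares over all genes tested were 34.2% higher and 38% lower. In other fits FBXO38 passed 2-fold with TPM (log2 fold change 1.04), and FBXO9 and FBXO22 with the GC trend removed. FBXO9 also passed it without JIB-04 replicate 1 (-1.02), JIB-04 replicate 2 (-1.06) or vehicle replicate 2 (-1.05). FBXO22, a receptor for the Jumonji demethylase KDM4A and for methylated p53, was the most abundant member with vehicle and was at 60.5 ± 5.52 FPKM with JIB-04, against 100.3 ± 6.42 FPKM with vehicle. Its log2 fold change was -0.73 (standard error 0.07, limma adjusted p = 1.69e-05), and -1.19 with the GC trend removed. FBXO9, which targets TEL2 and TTI1 of the mTOR pathway, was at 41.5 ± 7.80 and 81.3 ± 10.2 FPKM (log2 fold change -0.97, and -1.32 with the GC trend removed).

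FBXO7, a parkinsonism gene with a part in the clearance of damaged mitochondria, had the smallest fall of the 3: it was at 82.9 ± 2.34 FPKM with JIB-04 and 99.9 ± 2.69 FPKM with vehicle (log2 fold change -0.27, standard error 0.04). Of 6 tested genes from a list of partners of FBXO7 and of mitochondrial quality control, 3 rose and 3 fell, beside 34.2% and 38% of all genes. Log2 fold changes were 0.84 for MFN1, 0.54 for PINK1 and 0.29 for PSMF1. They were -0.75 for PARK7, -0.66 for VDAC1 and -0.63 for MFN2.

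FBXO38, a coactivator of KLF7 and a receptor for PD-1 in T cells, was at 70.3 ± 2.42 FPKM with JIB-04 and 38.0 ± 2.83 FPKM with vehicle (log2 fold change 0.88). FBXO10, reported to direct BCL2 to breakdown, was at 16.7 ± 0.937 and 10.6 ± 1.14 FPKM (log2 fold change 0.64). The calls of the other 2 genes were weak. FBXO48, reported as a receptor for AMP-activated kinase, was at 1.83 ± 0.317 and 1.30 ± 0.0952 FPKM (log2 fold change 0.36, limma adjusted p = 0.0446), and leaving out any library but JIB-04 replicate 1 ended the call (adjusted p = 0.0601 to 0.113 by limma), as did no filter, quantile scaling and removal of the GC trend. FBXO3, a receptor for the F-box protein FBXL2, was at 97.3 ± 1.98 and 85.8 ± 7.72 FPKM (log2 fold change 0.19, limma adjusted p = 0.0275). Its call was lost without JIB-04 replicate 1, 2 or 3 (adjusted p = 0.0505 to 0.0633 by limma) and turned to a fall with the GC trend removed (log2 fold change -0.31, limma adjusted p = 0.000152).

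FBXO33 and FBXO8 were the only 2 of 8 less studied receptors to pass the test, beside 72.2% of all genes, and both rose more than 3-fold. FBXO33, reported to act on the RNA-binding protein YB-1, was at 46.5, 43.6, 41.7 and 38.8 FPKM in JIB-04 replicates 1 to 4, against 12.01, 11.3, 12.9 and 12.8 FPKM in vehicle replicates 1 to 4. Its groups were far apart (log2 fold change 1.75, 95% interval 1.59 to 1.92, limma adjusted p = 4.91e-08). FBXO8, which carries a Sec7 domain and acts on the small GTPase ARF6, was at 40.7, 42.0, 40.9 and 41.8 FPKM in JIB-04 replicates 1 to 4, against 11.5, 11.8, 12.4 and 12.1 FPKM in vehicle replicates 1 to 4. The spread within each FBXO8 group was small (SD 0.632 and 0.411 FPKM), and the log2 fold change was 1.75 (95% interval 1.64 to 1.86, limma adjusted p = 7.11e-09).

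The 6 others were not called, with log2 fold changes between -0.20 and 0.10. They were FBXO41 (0.10), FBXO36 (0.09), FBXO34 (-0.03), FBXO46 (-0.13), FBXO15, in mouse a gene of embryonic stem cells (-0.16), and FBXO16 (-0.20). FBXO42 of the cell cycle group had -0.13. A missed threshold does not show that these 7 genes were unchanged. The 95% interval ran from -0.56 to 0.29 for FBXO46, from -0.65 to 0.33 for FBXO15 and from -0.17 to 0.11 for FBXO34. FBXO41 passed the test with TPM (log2 fold change 0.25, limma adjusted p = 0.0235) and with the GC trend removed (0.53, limma adjusted p = 4.74e-05), where FBXO42 was called lower (-0.19, limma adjusted p = 0.0106).

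Besides FBXO2, FBXO27 and FBXO40, 5 genes were under a mean of 1 FPKM. FBXO39 and FBXO47 were listed at 0 in every library. FBXO24 reached at most 0.411 FPKM with JIB-04 and 0.512 FPKM with vehicle, FBXW10 0.275 and 0.118 FPKM, and FBXW12 0.0450 and 0.131 FPKM.

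The order of the receptors by level changed with treatment. With JIB-04 the 5 most abundant were FBXO28 (166 FPKM), FBXO3 (97.3), FBXO7 (82.9), FBXO11 (79.8) and FBXO5 (74.7). With vehicle they were FBXO22 (100.3 FPKM), FBXO7 (99.9), FBXO3 (85.8), FBXW5 (85.1) and FBXO9 (81.3). FBXO28 was rank 1 with JIB-04 and rank 9 with vehicle, FBXO22 was rank 7 and rank 1, and FBXO32 was rank 19 and rank 36. Several neighbors in these orders did not differ beyond their spread: FBXO7 and FBXO11 with JIB-04 overlapped, as did FBXO22 and FBXO7, and FBXO3, FBXW5 and FBXO9, with vehicle.

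The 46 genes summed to 1325 ± 30.2 FPKM with JIB-04 (1286 to 1357) and to 1173 ± 14.1 FPKM with vehicle (1160 to 1192; exact two-sided permutation test over the libraries, p = 0.0286). Without FBXO28 the sums were 1159 ± 32.5 and 1124 ± 12.2 FPKM, and the groups overlapped (exact two-sided permutation p = 0.114). In TPM, which removes the lower FPKM total of the JIB-04 libraries, the sums without FBXO28 were 957 ± 6.04 and 829 ± 14.8. The 6 genes at least 2-fold higher held 24.6% to 25.8% of the summed FPKM of the 46 genes with JIB-04 and 7.78% to 8.32% with vehicle.

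By their medians, genes that rose had longer and more AT-rich transcripts than genes that fell. The median GC content of the longest protein-coding transcript was 42.7% for the 16 genes that rose and 51.6% for the 15 that fell, and the median length was 5660 and 2886 nucleotides. Over the 38 genes, log2 fold change and GC content had a Spearman rho of -0.31, and over the 12201 genes tested with a protein-coding transcript rho was -0.33. For transcript length rho was 0.40 over the 38 genes and 0.17 over the 12201. These are descriptions across genes of the same 8 libraries, and genes are not independent replicates.

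The libraries of 1 group also differed from each other along GC content. Over the 38 genes, the deviation of a library from its group mean had a Spearman rho with GC content between -0.59 (JIB-04 replicate 3) and 0.55 (JIB-04 replicate 1) with JIB-04, and between -0.55 (vehicle replicate 4) and 0.66 (vehicle replicate 1) with vehicle. With the GC trend removed from every library, 14 members rose and 14 fell, beside 38.5% and 43.7% of the genes in this fit (82.1% in all). The largest move of a log2 fold change was 0.59. At least 2-fold higher were 5 members, without FBXO30, and at least 2-fold lower were 4, with FBXO9 (-1.32) and FBXO22 (-1.19) but not FBXO17. Changes also moved by more than 1.5 times for FBXO11 (0.39), FBXO45 (0.35), FBXO31 (0.72) and FBXW2 (-0.55), which kept their calls. The 3 genes at least 2-fold lower without this correction were not alike in GC content: FBXO43 (38.6%) and FBXO4 (40.0%) are AT-rich and FBXO17 (59.4%) is GC-rich. The part of the GC trend in each change was not tested beyond this correction.

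**Figure D4:**
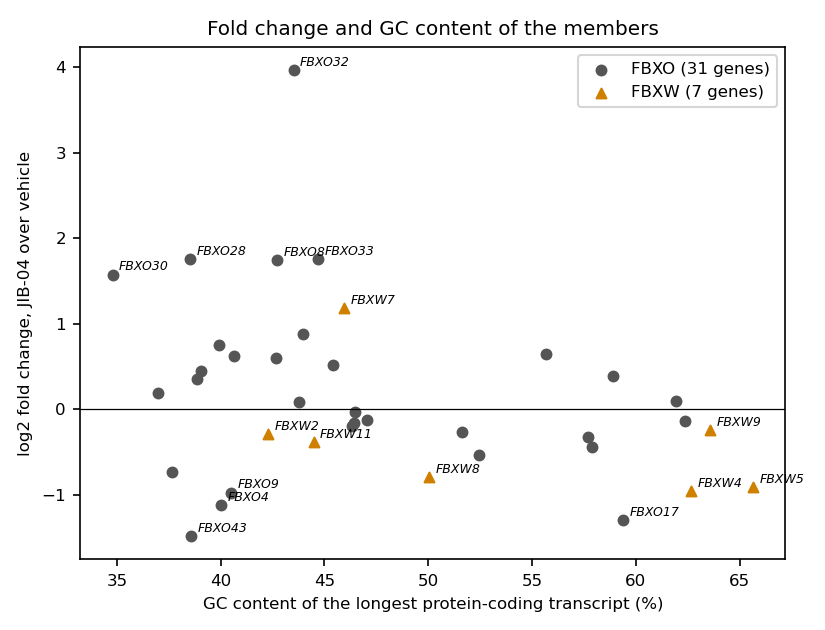
Log2 fold change of the 38 tested genes, JIB-04 over vehicle, against the GC content of the longest protein-coding transcript in percent, with FBXO genes as gray circles and FBXW genes as orange triangles. The 6 genes at least 2-fold higher lie between 34.8% and 45.9% GC, and the 3 FBXW genes with the highest GC content lie below 0.

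Promoter sequences from RefSeq (GRCh38.p14), each running from 250 bases before to 50 bases after a transcription start, were matched for 38 of the 46 genes, 30 of them tested. Windows of 3 genes that rose at least 2-fold and of 1 that fell at least 2-fold are shown, since motifs at the start of genes that move together are what a reader would compare. Motif matches are in capitals. They are CCGGAAG, the core bound by ETS factors, the family of the Fli1 part of the fusion protein, in FBXO28 (chr1:224113861-224114160, plus strand) and in FBXO8 (chr4:174283618-174283917, minus strand), and, in FBXO8 alone, the FOXO motif GTAAACA and a CCAAT box, read on either strand. FBXO30 (chr6:145814746-145815045, minus strand) and FBXO4 (chr5:41925031-41925330, plus strand) hold no match to the motifs searched. FBXW7, which rose, and FBXO17, which fell, also had windows, which are not printed. In FBXW7, 1 window held CCAAT and TTTGAA, and none held CCGGAAG or GTAAACA. In FBXO17, 1 window held TTTGAA, read on the other strand.
FBXO28: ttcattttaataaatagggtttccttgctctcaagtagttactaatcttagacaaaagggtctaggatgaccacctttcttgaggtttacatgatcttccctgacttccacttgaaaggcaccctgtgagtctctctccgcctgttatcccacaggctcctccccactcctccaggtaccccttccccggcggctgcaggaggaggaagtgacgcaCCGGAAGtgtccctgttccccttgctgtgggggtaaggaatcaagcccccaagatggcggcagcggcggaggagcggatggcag
FBXO8: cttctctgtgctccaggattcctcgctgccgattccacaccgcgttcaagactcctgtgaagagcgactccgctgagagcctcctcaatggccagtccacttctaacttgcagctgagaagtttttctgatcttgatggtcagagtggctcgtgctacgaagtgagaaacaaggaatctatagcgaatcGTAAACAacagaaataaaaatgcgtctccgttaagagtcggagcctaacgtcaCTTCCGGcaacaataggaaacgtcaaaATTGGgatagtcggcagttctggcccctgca
FBXO30: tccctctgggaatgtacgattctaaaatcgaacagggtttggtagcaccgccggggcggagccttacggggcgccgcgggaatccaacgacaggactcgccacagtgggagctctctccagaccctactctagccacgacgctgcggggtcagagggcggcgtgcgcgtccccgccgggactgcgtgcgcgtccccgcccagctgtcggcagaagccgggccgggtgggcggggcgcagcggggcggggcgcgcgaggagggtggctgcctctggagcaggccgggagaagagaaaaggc
FBXO4: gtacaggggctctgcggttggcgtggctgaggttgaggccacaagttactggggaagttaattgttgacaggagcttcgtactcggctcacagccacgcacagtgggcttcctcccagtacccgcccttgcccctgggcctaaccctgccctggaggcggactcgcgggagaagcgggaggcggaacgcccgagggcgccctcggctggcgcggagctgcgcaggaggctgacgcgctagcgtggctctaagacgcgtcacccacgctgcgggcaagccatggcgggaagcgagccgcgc

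The motifs searched, on both strands and with no overlap between different motifs in the windows shown, were CCGGAAG (ETS), GTAAACA (FOXO), CCAAT (the box bound by NF-Y), TTTGAA (the CHR element of cell cycle genes), CACGTG (E-box), TGACGTCA (cAMP response element) and TGACTCA (AP-1). CCGGAAG was present in at least 1 window of 10 of the 30 tested genes with a sequence, 5 of 12 that rose and 3 of 12 that fell, and in 10.3% of all 35116 windows. The 30 genes had 44 windows, so the count over genes and the share of windows are not on the same base. GTAAACA was found in FBXO8 and in 3.42% of all windows, CCAAT in 12 of the 30 genes and in 34.6% of all windows, and TTTGAA in 6 genes and in 15.2% of all windows. CACGTG was found in FBXW4 and FBXW8 and in 7.26% of all windows, TGACGTCA in FBXO34 and in 1.85%, and TGACTCA in no member and in 4.95%. A match is a run of letters, not a binding site.

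Several members share exon sequence with a neighboring gene. The libraries were directional, but whether the counting used the strand is not stated in the sources used here, so reads of overlapping genes may not be separated. FBXO31 overlaps MAP1LC3B on the opposite strand (log2 fold change 2.64 for MAP1LC3B and 0.39 for FBXO31), FBXO8 overlaps CEP44 (0.87), at 17.7 FPKM with JIB-04 and 9.53 FPKM with vehicle, and FBXO11 overlaps the mismatch repair gene MSH6, which moved the other way (log2 fold change -0.87). FBXO16 overlaps ZNF395 on the same strand (log2 fold change -0.54). The part of these neighbors in the values of FBXO31, FBXO8, FBXO11 and FBXO16 was not tested.

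The constant parts of the SCF ligase did not move in 1 direction. Of 13 core genes, 5 rose, 5 fell and 3 were not called, with a median log2 fold change of -0.06. The adaptor SKP1 was at 1226 ± 42.8 FPKM with JIB-04 and 958 ± 64.4 FPKM with vehicle (log2 fold change 0.36), while the scaffold CUL1 was at 39.2 ± 1.05 and 63.9 ± 6.35 FPKM (log2 fold change -0.69). The ubiquitin-conjugating enzyme UBE2D3 (log2 fold change 0.71) and the ligase ARIH1, which places the first ubiquitin on SCF substrates (0.98), rose, and the conjugating enzyme UBE2R2 fell (-0.53). With TPM or median-ratio scaling the count of core genes that fell was 3.

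Cullins must be modified by NEDD8 to be active. Of 13 genes of this modification and of receptor exchange, 2 rose, 7 fell and 4 were not called (median log2 fold change -0.31). Of all genes, 34.2% rose and 38% fell. NAE1, a subunit of the NEDD8-activating enzyme, was at 71.1 ± 2.71 FPKM with JIB-04 and 149 ± 15.8 FPKM with vehicle (log2 fold change -1.05), and CAND2, a receptor exchange factor, at 0.304 ± 0.125 and 3.22 ± 0.176 FPKM (-2.22). DCUN1D3 (1.01) and DCUN1D5 (0.30), which assist the transfer of NEDD8, rose. With TPM, or without vehicle replicate 4 alone, 4 of these 13 genes rose. Of 10 COP9 signalosome genes, whose products remove NEDD8, 4 rose and 5 fell (median -0.10), and GPS1 (-1.49), COPS6 (-0.75), COPS7B (-0.73) and COPS7A (-0.61) had the smallest adjusted p.

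Among 21 tested genes listed as F-box genes under names other than FBXO or FBXW and a number, 5 rose and 11 fell. Of all genes, 34.2% rose and 38% fell. The median log2 fold change of the 21 was -0.54, and with the GC trend removed 8 rose. Cyclin F, CCNF, a receptor active in G2 phase, was at 12.8 ± 0.482 FPKM with JIB-04 and 43.2 ± 1.10 FPKM with vehicle (log2 fold change -1.71), and TSPAN17, a tetraspanin that was once catalogued with the F-box genes, fell as well (-1.13). The Jumonji demethylase KDM2A, which carries an F-box, rose (0.63). Of 7 other cullins, 4 rose and 3 fell (median 0.62), with CUL5 (1.201), CUL4B (1.07), CUL3 (0.83) and CUL2 (0.62) higher and CUL7, the partner of FBXW8, lower (-0.87).

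**Figure D5:**
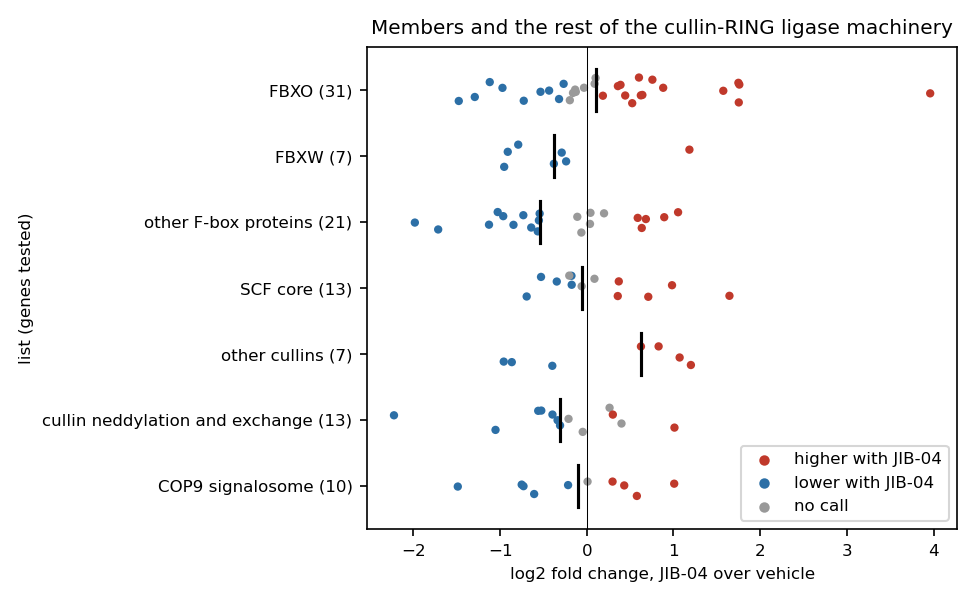
Log2 fold change, JIB-04 over vehicle, of the FBXO and FBXW genes and of 5 lists of related ligase genes, each gene a point (red, higher with JIB-04; blue, lower; gray, not called) and each list's median a vertical bar. Every list holds genes of both directions, and the medians run from -0.54 (other F-box genes) to 0.62 (other cullins).

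Messenger RNAs of proteins that the receptors act on were examined in 2 lists, which speak of RNA and not of protein. Of 14 genes whose products FBXW7 targets, 6 rose, 5 fell and 3 were not called, with a median log2 fold change of 0.02. Over all genes tested, 34.2% rose and 38% fell. KLF5 was at 61.0 ± 2.80 FPKM with JIB-04 and 2.97 ± 0.466 FPKM with vehicle (log2 fold change 4.16), JUN at 188 ± 23.2 and 15.5 ± 1.95 FPKM (3.56), and the survival factor MCL1 at 623 ± 23.9 and 204 ± 8.35 FPKM (1.61). AURKA, a mitotic kinase, fell (-1.15). Cyclin E1, CCNE1, had a log2 fold change of -0.03 and was not called.

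Of 8 genes that act with or on FBXO5 and FBXO4, 7 fell and CRYAB rose, with a median log2 fold change of -1.12. Of all genes, 38% fell and 34.2% rose. CDC20, which activates the anaphase-promoting complex that FBXO5 inhibits, was at 35.8 ± 1.70 FPKM with JIB-04 and 231 ± 10.4 FPKM with vehicle (log2 fold change -2.67). PLK1, the kinase that marks FBXO5 for destruction, fell (-1.33), as did cyclin B1, CCNB1 (-1.26). Both lists hold genes that the study names from these samples, so their directions are not independent evidence.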

How the data were processed

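RNA was extracted from A673 cells and sequenced as directional mRNA libraries on an Illumina HiSeq instrument; the read length is given as 50 cycles in the study's methods and as 151 bases in the sample labels. Per the submitters' processing notes, the authors aligned reads to GRCh38 with GSNAP, used SAMtools, and obtained an FPKM for every gene from Cufflinks. These deposited FPKM were taken without change for all 8 samples. Values of 117 repeated identifiers were summed, and 13 genes with a placeholder value were left out, none of them a member.

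Genes averaging 1 FPKM or more were tested with limma 3.58.1 (lmFit, eBayes with a trend, run in R 4.3.3) on log2(FPKM + 0.5), with Benjamini-Hochberg adjustment over 17460 genes and a threshold of 0.05. A log2 fold change of 1 in size was the limit for 2-fold. Exact two-sided permutation tests used scipy 1.17.1. FPKM do not carry the depth, so the precision rests on the spread among libraries of a group. The fit was also run on simulated data with 200 changed genes. Here 72.2% of 17460 genes were called, so that run does not measure the fit in these data. GENCODE 29 gave coordinates, overlaps, transcript length and GC content. Other steps used Python 3.11.15, pandas 2.3.3, numpy 2.4.6 and matplotlib 3.10.9.

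Values in every library were given for members that changed at least 2-fold, FBXW7 and the most abundant member, and beyond that rule for FBXO25, chosen after its values were seen. Other members are given by mean or log2 fold change, those under 1 FPKM by level, and lists by counts, the median and up to 4 genes with the smallest adjusted p; a few further list genes (SKP1, NKX2-2, the markers, TRIM63, CCNE1, CUL5) were named after their values were seen, and some genes of the lists are not reported here. The members and lists were chosen with earlier results of these data known. Alternatives were other pseudocounts (0.1 and 1), no filter or a mean of at least 5 FPKM, TPM, median-ratio and quantile scaling, an analysis of variance of FPKM as the authors did, a replicate block, each library left out, the highest entry of repeated identifiers, ratios of group means, and, added after seeing the data, removal of the GC trend of each library (a lowess of deviations from the gene mean on transcript GC content).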

Additional observations from a re-analysis of the deposited data

Results flagged for a closer look

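Each group of 4 libraries was examined for a value that stood apart by Dixon's test at its 95% critical value in the 38 members tested, which makes 76 groups, and 5 stood apart where chance gives about 1 in 20. FBXO28 in JIB-04 replicate 3 (170.4 FPKM) and FBXW8 in JIB-04 replicate 1 (6.66 FPKM) were above their group. FBXO31 in JIB-04 replicate 3 (46.6 FPKM) was below it. FBXO38 in vehicle replicate 2 (42.2 FPKM) and FBXO21 in vehicle replicate 1 (39.9 FPKM) were above theirs. All 5 values lay on their own side of the other group, and the calls of these 5 genes held without the library concerned. The causes were not tested.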

How the results depend on the processing

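Of 31 called members, 24 kept call and direction under every alternative. The count of members at least 2-fold lower was 3 and, leaving out 1 library, ranged from 3 to 5; it was 5 without JIB-04 replicate 2, when FBXO9 (-1.06) and FBXW5 (-1.01) passed 2-fold. The count at least 2-fold higher was 6 in every fit but TPM (7) and the GC trend removed (5). FBXO43 was not tested at a mean of at least 5 FPKM, FBXO4 was under 2-fold with TPM and FBXO17 with the GC trend removed. Without 1 library, 13 to 15 members rose and 14 to 15 fell. Of all genes, 2294 rose and 2053 fell at least 2-fold, with 1526 higher at a mean of at least 5 FPKM and 1363 lower with the GC trend removed, where fewer genes were tested. With the GC trend removed, FBXO3 (-0.31), FBXW9 (0.25), FBXO48 (-0.054), FBXO36 (-0.10) and FBXO46 (0.31) changed sign, and FBXO5 (0.04), FBXO44 (-0.02), FBXO6 (-0.13) and FBXO25 (0.28) lost their calls. Other changes of sign, all of members not called, were FBXO36 with quantile scaling (-0.0016), FBXO34 with TPM (0.13) and median-ratio scaling (0.039), FBXO42 with TPM (0.034) and FBXO46 with TPM (0.024). The cause of these changes was not tested. Over all genes tested, same-number correlations of deviations were -0.06 to 0.08, which does not show whether the replicate numbers pair the samples. Over the 38 members, the rho of deviation with GC content had the same sign in JIB-04 and vehicle libraries of each number. It was 0.55 and 0.66 for replicate 1, 0.37 and 0.09 for replicate 2, -0.59 and -0.25 for replicate 3, and -0.37 and -0.55 for replicate 4. With a replicate block 14 members rose and 15 fell. The calls of FBXO3 (adjusted p = 0.0509 by limma) and FBXO48 (adjusted p = 0.0649 by limma) were then lost. The depth behind low values is unknown, so members under 1 FPKM carry no statement on change.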
